A study of Mus musculus with 16 samples.

Results

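Replication-dependent histone genes encode the linker histone H1 and the core histones H2A, H2B, H3 and H4 that package newly made DNA. They were taken as the protein-coding rows of the count table whose GENCODE vM21 symbol starts with Hist1h, Hist2h, Hist3h or Hist4h, which gave 67 of 53379 genes. H1 had 6 members, H2A 18, H2B 18, H3 12 and H4 13. Of the 67 members, 54 lie in the Hist1 cluster on chromosome 13, 10 in Hist2 on chromosome 3, 2 in Hist3 on chromosome 11 and 1, Hist4h4, on chromosome 6. The rule goes by name and uses no measured value, though the gene family was chosen with earlier results of these data known.

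The 16 libraries came from male mouse embryonic stem cells (mESC) in medium with fetal bovine serum, LIF and the inhibitors PD0325901 and CHIR99021, crosslinked with formaldehyde (fRIP) or with ultraviolet light (UV-RIP). For each crosslinker there were 4 libraries of RNA immunoprecipitated with a Sox2 antibody (IP) and 4 input libraries from the same precleared lysates, numbered 3 to 6. Formaldehyde joins proteins to each other as well as to RNA, whereas ultraviolet light joins protein to RNA in direct contact. All 4 groups were cells of this kind. Each crosslinker had 4 culture plates of its own, so the crosslinkers are compared across plates. Neither a mock-antibody IP nor an uncrosslinked IP was analysed here. The question for the histone genes was whether their RNA was enriched or depleted in the Sox2 IP, and whether the crosslinkers differed. Of the 7 mESC markers, 6 (Pou5f1, Nanog, Klf4, Zfp42, Esrrb and Tfcp2l1) had at least 552 UMIs in every library, and the other, Sox2, was listed at 0 in all 16, with its span inside Sox2ot. The summed CPM of fibroblast, primitive endoderm, mesoderm and neural markers was at most 8.74 in any library, and the fibroblast marker Dcn had at most 1 UMI. Totals ran from 12456298 to 21211537 UMIs per library, where a UMI (unique molecular identifier) tags a fragment before amplification so that its copies are not counted again. Values are given below as CPM, UMIs scaled to a library total of 1000000.

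Histone mRNAs are made mainly in S phase, from genes that mostly have no introns. In place of a poly(A) tail they end in a short stem-loop, which is bound by the stem-loop binding protein Slbp and sets their processing, translation and decay. Many copies encode the same or nearly the same protein, so a cell's histone mRNA is the sum over the clusters. These libraries were made from total RNA after removal of ribosomal RNA, a method that does not need a poly(A) tail.

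The stem-loop was looked for in the annotated GENCODE transcripts, as a Watson-Crick stem of 6 base pairs that begins with GG and ends with CC, closed by a loop of 4 bases that begins with T and ends with C. It was found in 36 members and in 112 of 21884 other coding genes (0.51%). Among the 31 members without a match are some, such as Hist1h2ak, whose annotated transcript holds the coding sequence alone, so a missing match is not a missing stem-loop. The sequences below show how the H4 class differs from the others, with 5 bases on each side and the stem-loop in capitals.
Hist1h1d: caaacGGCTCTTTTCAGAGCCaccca
Hist1h2ab: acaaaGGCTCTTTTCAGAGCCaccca
Hist1h2bg: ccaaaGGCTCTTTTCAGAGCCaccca
Hist1h3a: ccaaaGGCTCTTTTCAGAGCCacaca
Hist1h4d: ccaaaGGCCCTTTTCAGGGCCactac
Hist4h4: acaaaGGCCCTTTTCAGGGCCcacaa
Hist1h4a: ccaaaGGCCCTTCTCAGGGCCgccca
Hist1h4b: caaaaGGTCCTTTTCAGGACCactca
All 26 matches in H1 (3), H2A (10), H2B (8) and H3 (5) to this pattern had 1 form, that of Hist1h1d. None of the 10 H4 matches had it. Counting from 1 at the 5′ end of the capitals, 7 H4 members carried T4C and A13G relative to that form, a changed base pair in a stem that the search required to be closed. Hist1h4a carried T8C in the loop besides these, and 2 members, Hist1h4b and Hist1h4j, carried C3T, T4C, A13G and G14A. The stem therefore had 5 G-C pairs in 8 of the H4 members and 4 in the other 2 and in all other classes.

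The promoters of the classes were compared as well. RefSeq promoters on GRCm38.p6, from 250 bases before to 50 after the start, were matched for 62 of the 67 members, and 4 motifs were searched on both strands. CCAAT, bound by the factor NF-Y, was found in all 6 H1, 18 H2A, 16 H2B and 10 H3 genes but in 3 of 12 H4 genes, against 37.4% of all 32851 promoters in the table. ATTTGCAT, the octamer bound by POU proteins such as Pou2f1, was found in 7 of 18 H2A and 7 of 16 H2B genes and in no H1, H3 or H4 gene, against 1.74% of all promoters. TATAAA, a form of the element bound by TBP, was found in 35 of the 62, against 13.6%. GGTCCG was searched after the H4 promoters had been read, and was found in 11 of 12 H4 genes, 1 H2B and 1 H3 gene, against 8.25% of all promoters. The promoters of Hist1h2bb, the H2B gene with the most UMIs, and of Hist4h4 are shown for the 250 bases before the start, with every match to the 4 motifs in capitals.
Hist1h2bb promoter (chr13:23746484-23746733, plus strand): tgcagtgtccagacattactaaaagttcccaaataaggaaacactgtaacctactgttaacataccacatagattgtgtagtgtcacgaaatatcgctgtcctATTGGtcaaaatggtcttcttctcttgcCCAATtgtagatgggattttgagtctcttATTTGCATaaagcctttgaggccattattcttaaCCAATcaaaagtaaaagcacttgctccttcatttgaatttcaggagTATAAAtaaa
Hist4h4 promoter (chr6:136804432-136804681, minus strand): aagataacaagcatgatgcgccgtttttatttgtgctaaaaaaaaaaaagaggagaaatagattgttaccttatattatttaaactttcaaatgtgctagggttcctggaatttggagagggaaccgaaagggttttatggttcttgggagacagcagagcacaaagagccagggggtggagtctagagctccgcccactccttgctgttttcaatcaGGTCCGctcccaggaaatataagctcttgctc
Hist1h2bb holds ATTTGCAT, CCAAT on either strand and TATAAA, and Hist4h4 holds GGTCCG alone. These matches describe the letters in these windows, and no binding was measured.

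Histone RNA was readily measured, though unevenly between copies. Of the 67 members, 59 had 3 or more UMIs in at least 1 library and were tested, and 56 averaged at least 10 UMIs. The highest means were 2488 UMIs for Hist1h4d, 2403 for Hist1h1a and 2332 for Hist1h1d. The 8 untested members were Hist1h2ao, Hist1h2ap, Hist2h2aa1, Hist2h2aa2, Hist3h2a, Hist1h2br, Hist2h2bb and Hist2h3c1, and 4 of them had 0 UMIs in all 16 libraries. Of the 8, 5 lie by more than 90% of their length inside another annotated gene, which was true of 2 of the 59 tested members. In 7 of the 8 fewer than 15% of the transcript's 34-base windows, the read length, were unique among GENCODE transcripts, against 12 of the 59. Reads that did not map to 1 place were discarded, so values for near-identical copies understate those genes. Of the 67 members, 40 have under 50% unique windows. A window shared with an overlapping gene also counts as not unique, though its reads can map to 1 place. Hist2h3b, with 100% of its length inside another gene, had 0% unique windows and a mean of 275.8 UMIs. The share thus mixes copies with overlap. Levels of different genes are set side by side below only per length and with these limits. The H2A genes also overlap short genes annotated on the other strand, and the strand setting of the counting is not given in the sources used here.

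Per kilobase of annotated gene body, the level in the UV-RIP inputs was highest for Hist1h1a, at 132 CPM per kb, followed by Hist1h4h at 105. This order turned when CPM was divided by the number of unique windows. Among genes with at least 100 such windows this gave 223 CPM per 1000 unique windows for Hist1h3e, 221 for Hist1h4h, 202 for Hist1h2ak and 139 for Hist1h1a, and genes with fewer were left out, so no gene can be called the highest. Windows shared with an overlapping gene, as in Hist1h2ak, are left out of the divisor although their reads may be counted. The testis H1 variant Hist1h1t was at 0.607 CPM per kb, and the testis variants Hist1h2aa and Hist1h2ba, which lie next to each other, were at 2.1 and 1.36. The single Hist3 gene that could be tested, Hist3h2ba, was at 2.53 CPM per kb, and Hist4h4, whose annotated body is 2863 bases long, at 4.88.

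All 67 members together took 2471, 9281, 3439 and 3025 CPM in fRIP inputs 3, 4, 5 and 6, and 1342, 1731, 1952 and 1679 CPM in the fRIP IPs in the same order. In UV-RIP they took 1313, 1064, 1097 and 1164 CPM in the inputs and 1102, 1032, 915 and 954 in the IPs. Each fRIP IP was thus below its own input but above every UV-RIP library. One library, fRIP input 4, stood apart, at 3.12 times the mean of the other fRIP inputs, whereas fRIP IP 4 was at 1.04 times the mean of the other fRIP IPs. The number of members called and the class medians are therefore also given without replicate 4.

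**Figure D1:**
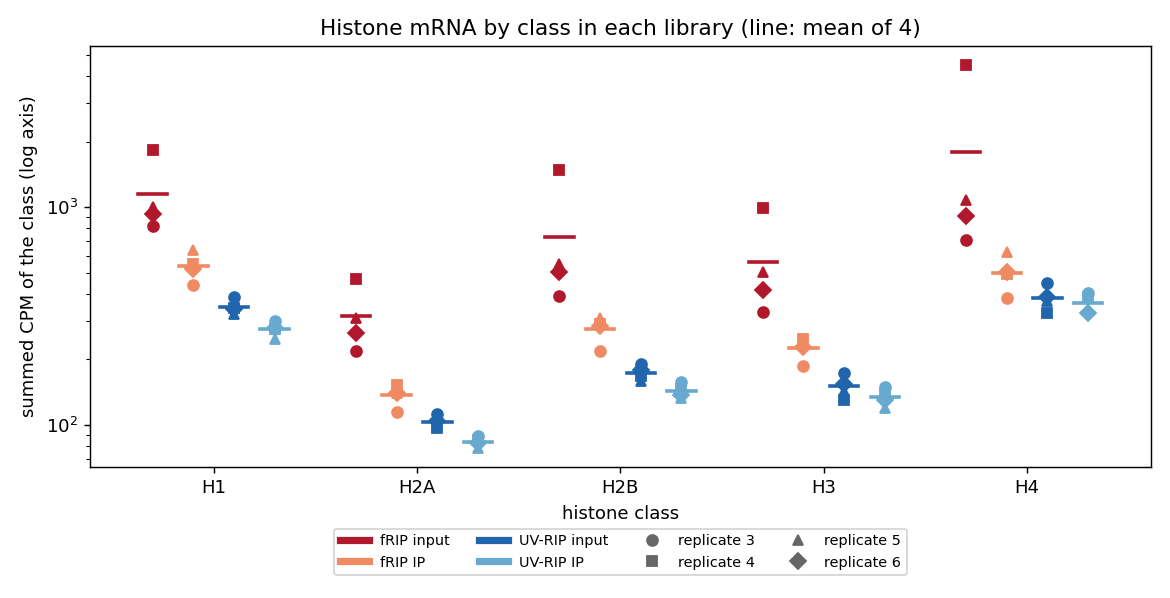
Summed CPM of each histone class in each of the 16 libraries, on a log axis, with lines at the means of 4 and 1 marker shape per replicate. In all 5 classes fRIP input 4 (squares) is the highest library, and in H4 it reaches 4497 CPM against 710.5 to 1078 in the other fRIP inputs.

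In fRIP the histone genes were depleted from the Sox2 IP almost without exception. Of the 59 tested members 55 were depleted, at a fold change below 1/1.5 and an adjusted p below 0.05, against 10.7% of all 22936 genes tested. None was enriched (8.80% of all genes were), by edgeR's quasi-likelihood test or by DESeq2, and at an unadjusted p below 0.05 there were 0 higher members as well. The median log2 fold change of the members was -1.22, against -0.03 over all genes. With the trend of fold change on gene length removed it was -0.79, against -0.02. In 52 of the 59 all 4 IPs were below all 4 inputs, a pattern shown by 19.2% of all genes. In 56 the IP was below its own input in all 4 pairs, a count with no share of all genes beside it. Adjusted p-values here and below are edgeR quasi-likelihood values, adjusted by Benjamini-Hochberg over all genes. SE is the absolute log2 fold change divided by the square root of the F statistic of that test, not a standard error fitted by the model.

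By class, 6 of 6 H1, 13 of 13 H2A, 14 of 16 H2B, 10 of 11 H3 and 12 of 13 H4 genes were depleted. The class medians were -1.03 for H1, -1.21 for H2A, -1.24 for H2B, -1.16 for H3 and -1.48 for H4 on the log2 scale. Without replicate 4 the number of depleted members was 52, against 9.41% of all genes, and the class medians were -0.81, -0.98, -0.87, -0.92 and -0.91 in the same order. The lower value of H4 thus rested on replicate 4. The members that came within the fold threshold without it were Hist1h2bk at -0.51, Hist1h4h at -0.56 and Hist1h4k at -0.52. By cluster, 50 of 51 Hist1 genes, 4 of 6 Hist2 genes and the 1 Hist3 gene were depleted, and Hist4h4 was not, and without replicate 4 the Hist1 count was 47. Members with an annotated stem-loop had a median of -1.27 (n = 30) and those without one -1.16 (n = 29), or -0.98 and -0.91 without replicate 4.

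**Figure D2:**
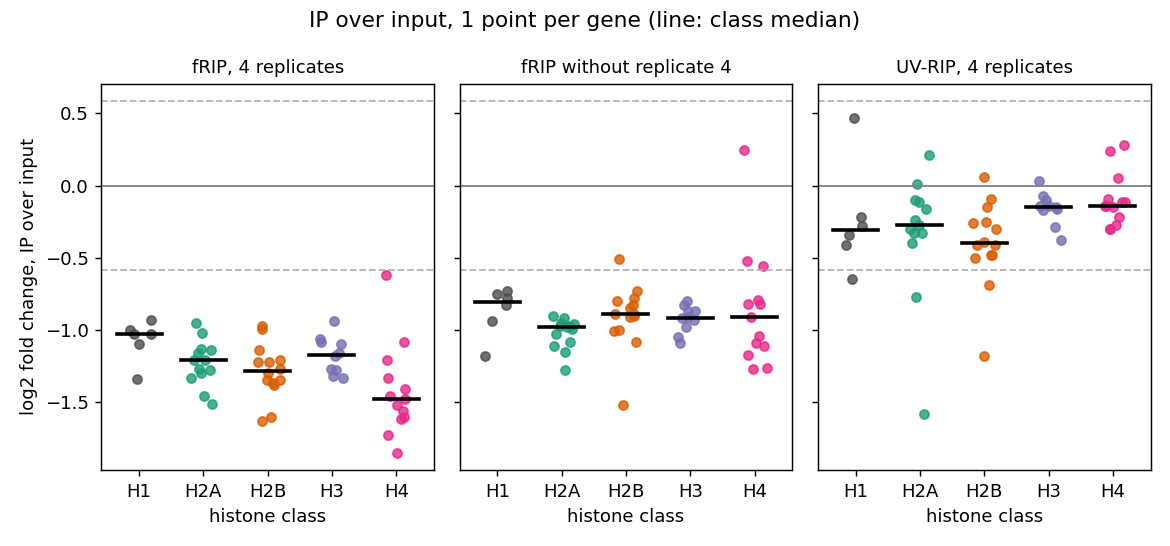
Log2 fold change of IP over input for the 56 histone genes averaging at least 10 UMIs, by class, in fRIP, in fRIP without replicate 4 and in UV-RIP. Solid lines mark class medians and dashed lines a fold of 1.5. In fRIP nearly all genes lie below the lower dashed line, and H4 is no longer the lowest class once replicate 4 is left out, when 1 gene, Hist4h4, lies above 0.

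Hist1h1a, a linker histone gene (chr13:23763666-23764406), had 110.3, 139, 165 and 135 CPM in fRIP IPs 3 to 6 and 216, 526, 261 and 245 in their inputs. The groups did not overlap, and the log2 fold change was -1.10 (SE 0.13, adjusted p = 1.6e-07). Without replicate 4 it was -0.83 (SE 0.05). Hist1h2ak, an H2A gene that lies by 35.1% of its length under a gene on the other strand, went from 40.8, 64.8, 59.0 and 51.4 CPM in the inputs to 20.9, 27.7, 30.3 and 26.8 in the IPs. Its fRIP input 4 was 1.29 times the mean of the other fRIP inputs, and its log2 fold change was -1.02 (SE 0.09, adjusted p = 1.79e-09), or -0.95 without replicate 4.

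Hist1h2bb, whose promoter is shown above, had 67.4, 347, 103 and 91.2 CPM in the inputs and 38.4, 49.2, 52.2 and 48.5 in the IPs. Input 4 was 3.98 times the mean of the others, and the log2 fold change of -1.38 (SE 0.20, adjusted p = 3.53e-06) was -0.91 (SE 0.06) without replicate 4. The H3 gene Hist1h3e had 64.6, 193, 105 and 85.3 CPM in the inputs and 34.1, 44.5, 45.7 and 42.3 in the IPs, with a log2 fold change of -1.32 (SE 0.13) that became -1.05 without replicate 4. Of the windows of Hist1h3e 17.2% are unique.

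Hist1h4d, the member with the most UMIs, had 180.2, 810.1, 263 and 222 CPM in the inputs and 84.6, 117, 115 and 108 in the IPs. Inputs and IPs did not overlap, and the log2 fold change was -1.52 (SE 0.17, adjusted p = 1.58e-07), or -1.11 (SE 0.05) without replicate 4. The largest depletion among members with 10 or more UMIs was that of another H4 gene, Hist1h4c, at -1.85 (SE 0.24) or -1.27 without replicate 4, with 71.7, 514, 113 and 101 CPM in the inputs against 30.9, 41.3, 50.8 and 37.0 in the IPs. Hist1h4m at -1.73 and the testis H2B gene Hist1h2ba at -1.63 followed, and without replicate 4 these were at -1.26 and -1.01. The order rested on replicate 4, without which the lowest values of members with 10 or more UMIs were those of Hist3h2ba (-1.52) and Hist1h2af (-1.28). Among members averaging 10 or more UMIs the values nearest to 0 were those of the linker histone gene Hist1h1b (-0.93), the H3 gene Hist2h3b (-0.94) and Hist4h4. Among the same members they were, without replicate 4, those of Hist1h2bk, Hist1h4k, Hist1h4h and Hist4h4.

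Hist4h4 (chr6:136801553-136804415) stood apart from the other members. It had 26.1, 338, 42.0 and 33.5 CPM in the fRIP inputs and 28.6, 29.5, 51.2 and 41.3 in the IPs, so that in 3 of 4 pairs the IP was the higher library. Its log2 fold change of -0.62 (SE 0.37, adjusted p = 0.21) was not called, and without replicate 4 it was 0.25 (SE 0.07, adjusted p = 0.00155), in the other direction but under the fold threshold. Without replicate 3 or replicate 6 it was called depleted, at -0.89 and -0.97, and likewise, at -0.62, when no filter on low counts was applied and, at -1.55, without the replicate block. The other members not called in fRIP were Hist1h2bq, Hist2h2be and Hist2h3c2, each with a mean under 10 UMIs.

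**Figure D3:**
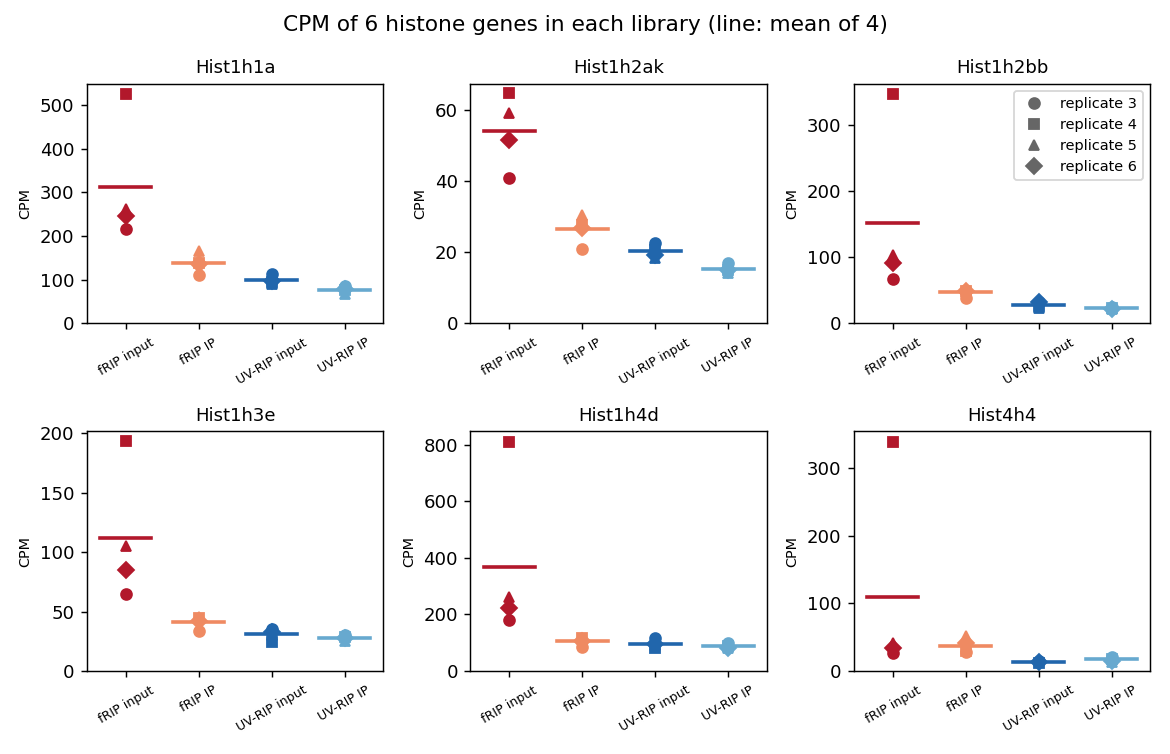
CPM of the gene with the most UMIs in each class and of Hist4h4 in each library, with lines at the means of 4 and 1 marker shape per replicate. In the first 5 genes every fRIP IP is below every fRIP input, whereas for Hist4h4 the inputs other than input 4 (26.1 to 42.0 CPM) overlap the IPs (28.6 to 51.2 CPM).

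In contrast to fRIP, histone RNA in UV-RIP differed little between IP and input. Of the 59 tested members 5 were depleted, against 5.53% of all genes, and none was enriched, against 0.680%. DESeq2 called none enriched either, and edgeR gave 2 higher members at an unadjusted p below 0.05. The median log2 fold change was -0.22, against -0.17 over all genes, and 53 of the 59 members lay within a fold of 1.5 of no change. Without a threshold on the fold, 30 members were lower and 2 higher at an adjusted p below 0.05, against 29.0% and 6.60% of all genes. Of the 30, 22 were lower in all 4 pairs, again with no share of all genes beside it. The balance depended on the scaling: 8 of the 59 members had a positive log2 fold change with total UMIs as library size, 26 under TMM scaling and 30 with the length trend removed. Class medians were -0.31 for H1, -0.27 for H2A, -0.40 for H2B, -0.15 for H3 and -0.14 for H4. Under TMM scaling, which moved the median of all genes from -0.17 to 0.01, those of H3 and H4 turned to 0.03 and 0.04 and that of all members to -0.06. The summed CPM of the H4 genes in IP over input was 0.901, 1.18, 0.905 and 0.846 in UV-RIP pairs 3 to 6, so that pair 4 alone was above 1.

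The 5 members depleted in UV-RIP were Hist1h2aa, Hist3h2ba, Hist1h2af, Hist1h2bj and Hist1h1e. Under TMM scaling Hist1h1e (-0.47) and Hist1h2bj (-0.51) came within the fold threshold, with the length trend removed these and Hist1h2af (-0.52) did, and DESeq2 with median-of-ratios factors called Hist1h2af alone. Hist1h1e and Hist1h2bj also came within the threshold when library totals excluded Gm26917 and Gm42418 (-0.50 and -0.54), Hist1h1e with the GC trend removed (-0.53), Hist1h2bj without UV-RIP replicate 6 (-0.51), and Hist1h2aa was not called by DESeq2 with total UMIs either. Hist1h1e, a linker histone gene that overlaps the long annotated body of Hist1h2be, had 28.6, 25.5, 25.1 and 26.6 CPM in the inputs and 19, 17, 15.5 and 16.1 in the IPs. The groups did not overlap, and the log2 fold change was -0.65 (SE 0.07, adjusted p = 1.06e-20). Hist3h2ba, the Hist3 member, had 2.25, 1.44, 1.29 and 1.23 CPM in the inputs and 0.844, 0.543, 0.243 and 1.04 in the IPs, at -1.18 (SE 0.27, adjusted p = 6.15e-05). Hist1h2aa, with the lowest value at -1.58 (SE 0.42), rests on a mean of 16.8 UMIs per library. These 3 and Hist1h2af (-0.77) and Hist1h2bj (-0.69) were also depleted in fRIP.

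The largest positive values were 0.47 (SE 0.35, adjusted p = 0.345) for Hist1h1t, 0.28 (SE 0.08, adjusted p = 0.000762) for Hist4h4 and 0.24 (SE 0.05, adjusted p = 1.16e-05) for Hist1h4h. Hist4h4 had 15.4, 11.4, 16 and 13.1 CPM in the UV-RIP inputs and 21.6, 18, 13.8 and 15.3 in the IPs, higher in 3 of 4 pairs. Hist1h4d had 117, 83.3, 92.5 and 96.0 CPM in the inputs and 101, 88.8, 80.2 and 83.3 in the IPs, which overlapped, and its log2 fold change was -0.14 (SE 0.04). Hist1h1a went from 112, 94.4, 89.3 and 97.4 CPM in the inputs to 86.2, 77.0, 67.2 and 78.9 in the IPs, without overlap, and was at -0.34 (SE 0.04), within the fold threshold.

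The difference between the crosslinkers was tested directly, by the interaction of IP and crosslinker in 1 fit of the 16 libraries that also held the plate. In 50 of the 59 members the log2 fold change was lower in fRIP than in UV-RIP at an adjusted p below 0.05, against 8.07% of all genes. In none was it higher, against 18.6%, and at an unadjusted p below 0.05 edgeR also gave 0 higher members, as did DESeq2 at its adjusted p. The median difference was -0.97, against 0.15 over all genes. Without fRIP replicate 4 the count was 50, against 9.18%, and the median -0.65. DESeq2 called 33 members with total UMIs as size factors and 37 with its own.

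Class medians of the difference were -0.70 for H1, -0.88 for H2A, -0.89 for H2B, -0.99 for H3 and -1.39 for H4, and without fRIP replicate 4 they were -0.46, -0.68, -0.51, -0.80 and -0.80. The differences were -0.76 (SE 0.16) for Hist1h1a, -0.62 (SE 0.11) for Hist1h2ak, -1.10 (SE 0.27) for Hist1h2bb, -1.19 (SE 0.18) for Hist1h3e and -1.39 (SE 0.23, adjusted p = 3.68e-05) for Hist1h4d. The lowest was that of Hist1h1t, at -1.80 (SE 0.46, adjusted p = 0.00366), a gene with a mean of 14.5 UMIs, and -1.65 without replicate 4. The difference of Hist4h4 was -0.97 (SE 0.54, adjusted p = 0.214), and without replicate 4 it was -0.04 (SE 0.10). Hist1h2aa, at 0.05 (SE 0.39), Hist3h2ba, at -0.40 (SE 0.36), and Hist1h2bj, at -0.54 (SE 0.26), were depleted in both IPs and were not called different between the crosslinkers. Without fRIP replicate 4 the difference of Hist1h2bj, with a mean of 276.8 UMIs, was -0.14.

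**Figure D4:**
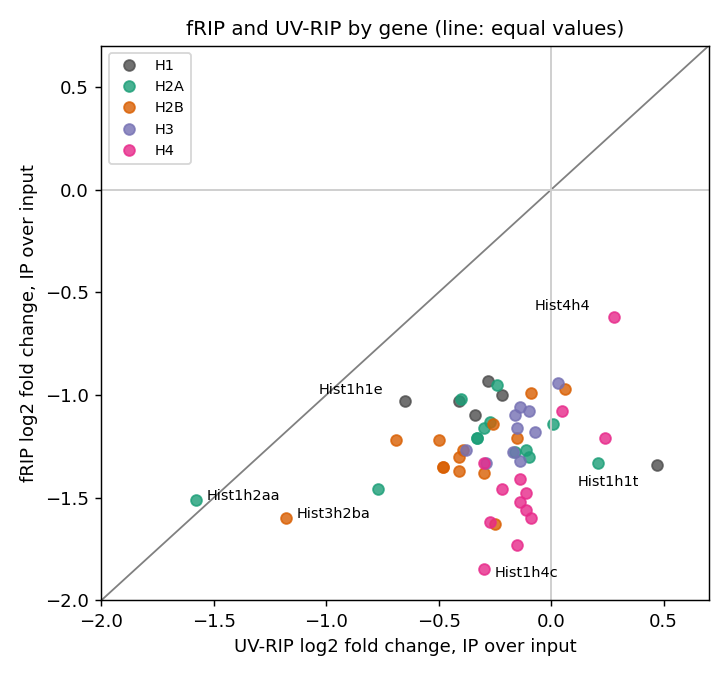
Log2 fold change of IP over input in fRIP against that in UV-RIP for the 56 histone genes averaging at least 10 UMIs, coloured by class, with a line at equal values. All but Hist1h2aa lie below the line, and Hist4h4 lies highest in fRIP at -0.62.

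The inputs themselves differed between the crosslinkers. In the fRIP inputs 56 of the 59 members were higher than in the UV-RIP inputs, with a ratio over 1.5 at an adjusted p below 0.05, against 10.6% of all genes. None was lower by edgeR, by DESeq2 or at an unadjusted p below 0.05, against 9.44% of all genes called lower. The median log2 ratio was 1.90, against 0.03 over all genes, and the mean summed CPM of the members was 3.93 times that of the UV-RIP inputs. Without fRIP input 4 the count was 56, against 9.77%, the median 1.36 and the ratio of sums 2.57. The 3 members not called were Hist1h2bq, Hist2h2be and Hist2h3c2.

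By class the median log2 ratio of the inputs was 1.66 for H1, 1.69 for H2A, 1.90 for H2B, 1.91 for H3 and 2.12 for H4. Without fRIP input 4 it was 1.41, 1.33, 1.43, 1.46 and 1.23, so H4 went from the highest class to the lowest. The largest ratios were those of Hist4h4, at 2.98 (SE 0.64), Hist1h4f, at 2.78 (SE 0.58), and Hist1h4a, at 2.49 (SE 0.50), and without that library they were 1.27, 1.29 and 1.25. The smallest among members with 10 or more UMIs was 1.23 (SE 0.25) for Hist1h2bp. Without fRIP input 4 the largest were 1.69 for Hist1h2ag and 1.64 for Hist1h3a, and the smallest 0.66 for Hist1h4i and 0.90 for Hist1h2bp.

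The IPs differed in the same direction by less. The mean summed CPM of the members in the fRIP IPs was 1.67 times that in the UV-RIP IPs. The ratio of sums was 1.95 for H1, 1.63 for H2A, 1.92 for H2B, 1.67 for H3 and 1.38 for H4. These ratios were not tested. Since totals are shared with all other RNA, more histone RNA in a library cannot be told apart from less of other RNA, nor more cells in S phase from more histone RNA per cell.

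**Figure D5:**
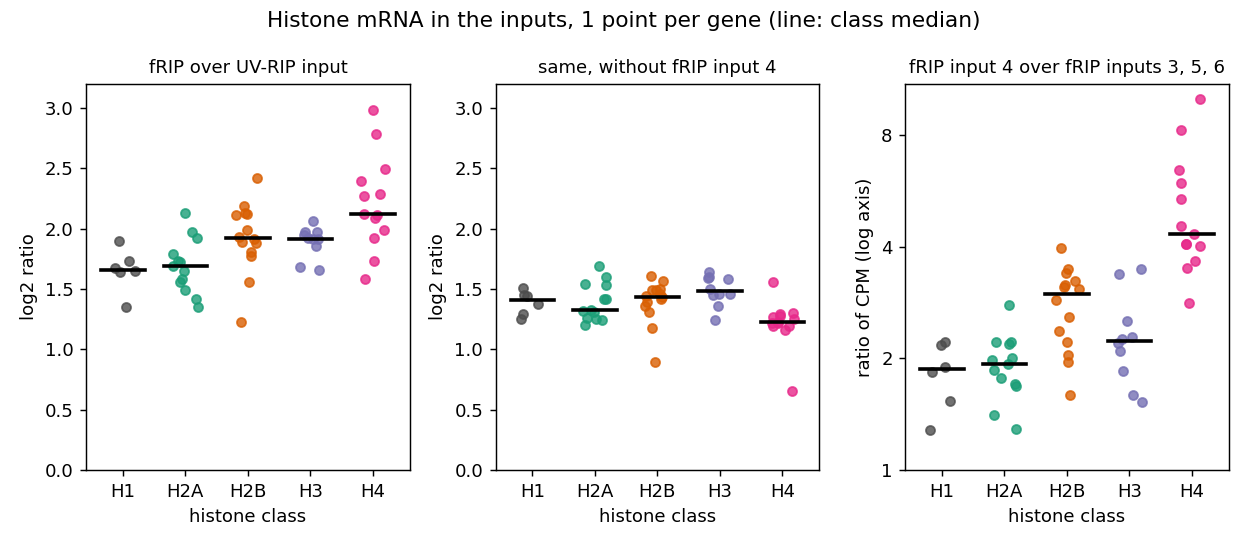
Histone genes in the inputs by class, 1 point for each of 56 genes averaging at least 10 UMIs and a line at each class median. The left panel shows the log2 ratio of fRIP to UV-RIP input, the middle panel the same without fRIP input 4, and the right panel the CPM of fRIP input 4 over the mean of fRIP inputs 3, 5 and 6, on a log axis. H4 is the highest class on the left and right and the lowest in the middle.

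The excess in fRIP input 4 differed between classes. Over the 56 members averaging at least 10 UMIs the CPM of this library was a median of 2.26 times the mean of the other fRIP inputs, against 0.959 over the 15131 genes of the table with that many UMIs and 1.62 over 93 cytosolic ribosomal protein genes and 0.987 over 182 other single-exon genes. The class medians were 1.87 for H1, 1.93 for H2A, 2.22 for H3, 2.98 for H2B and 4.33 for H4. Each of the 56 was above 1, from 1.28 for Hist1h1e to 9.99 for Hist4h4, and the lowest H4 gene, Hist1h4b at 2.82, was above every H1 and H2A gene. Hist1h4f was at 8.24, Hist1h4a at 6.42 and Hist1h4h at 5.95. Across the 56 members the log2 of this ratio had a Spearman correlation of 0.01 with transcript length, -0.29 with GC content and 0.10 with the share of unique windows. The genes share 1 library here, so these are descriptions. In fRIP IP 4, from the same lysate, the H4 sum was 0.976 times the mean of the other IPs. With 1 library, a difference of that lysate and one of that library cannot be told apart.

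Genes that serve the same process were read from lists. Of the 16 factors of histone mRNA metabolism found in the table none was enriched in fRIP and 2 were depleted, where 8.80% and 10.7% of all genes were: Slbp itself (-0.65, SE 0.08) and Lsm10 (-1.01, SE 0.16), a subunit of the U7 particle that takes part in histone 3′ end cleavage. The median of these factors was -0.48 in fRIP and 0.28 between the inputs. Between the inputs 4 of the 16 were higher in fRIP and 0 lower, against 10.6% of all genes higher, and 3 were higher without fRIP input 4. Of the 11 replacement histone genes, which are made outside S phase as well, 1 (H2afy) was enriched in fRIP and 5 (H2afz, H2afx, H2afj, H3f3b and H1f0) were depleted, with a median of -0.43, and without replicate 4 none was enriched and 6 were depleted. Between the inputs 5 of the 11 were higher in fRIP, against 10.6% of all genes, with a median of 0.45. Of 16 tested S phase genes, such as Pcna and the Mcm helicase subunits, none was enriched and 5 (Pcna, Mcm4, Rrm1, Rrm2 and Ccne2) were depleted in fRIP, against 10.7% of all genes, with a median of -0.49. Between the inputs 10 of the 16 were higher in fRIP and none lower, with a median of 0.76, or 9 and 0.63 without fRIP input 4.

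Single-exon genes and ribosomal protein genes served as groups alike in structure or abundance. In 369 tested single-exon coding genes that are not members, 113 were depleted and 8 enriched in fRIP, against 10.7% and 8.80% of all genes, with a median of -0.59. Of the 369, only 182 averaged at least 10 UMIs, against 56 of the 59 tested histone members. Between the inputs 113 of the 369 were higher in fRIP and 8 lower, against 10.6% and 9.44% of all genes, with a median of 0.61. In 97 tested genes of cytosolic ribosomal proteins, which are short and abundant, 76 were depleted and 2 enriched in fRIP, with a median of -0.97, and without replicate 4 these were 70, 2 and -0.79. In UV-RIP 38 of the 97 were depleted, against 5.53% of all genes, with a median of -0.51. Between the inputs 61 of them were higher in fRIP and none lower, with a median of 0.68, or 24 and 0.47 without fRIP input 4. The summed CPM of the 7 mESC markers also differed between the inputs, at 3233 to 3627 in fRIP and 1904 to 2035 in UV-RIP. In the difference between the crosslinkers 55 of the 97 ribosomal protein genes were lower in fRIP (median -0.40, with 46 lower and a median of -0.21 without replicate 4), as were 68 of the 369 single-exon genes (median -0.44) and 10 of the 16 S phase genes (median -0.32), against 8.07% of all genes. No test between these groups and the histone genes was made, and the part of gene length or RNA type in these values was not tested beyond the length trend given with the alternatives.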

How the data were processed

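Per the labels and the methods of the study, total RNA was depleted of ribosomal RNA, adaptors carrying UMIs were used, and paired-end reads of 34 bases were mapped with STAR to mm10, keeping reads with a single position. The authors deposited raw counts of UMIs per gene body, introns included, for 53379 genes in 16 libraries. The STAR version and the strand setting are not given in the sources used here.

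IP was compared with input in edgeR 4.0.16 (R 4.3.3, limma 3.58.1) by the quasi-likelihood test across 22936 genes with at least 3 UMIs in 1 or more libraries, with total UMIs as library size. The replicate number entered as a block, since IP and input of 1 number come from 1 lysate. The deviations of IP and input of a number correlated at 0.03 to 0.60 over 10208 genes, with UV-RIP 6 (0.03) and fRIP 4 (0.11) showing next to none. The inputs were compared without a block. Calls needed a fold of 1.5 and an adjusted p of 0.05, and the interaction the p alone. Totals of 12456298 to 21211537 UMIs limit precision for genes with few UMIs.

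Alternatives were TMM scaling, totals without Gm26917 and Gm42418, DESeq2 1.42.0 with either size factor, other count filters, length or GC trends removed, no fold threshold, the other block setting and each replicate left out. The scripts were tested on simulated data. Members described were the 3 with the most UMIs in each class, the 3 highest and 3 lowest in each comparison, those called enriched, and measured members of Hist3 and Hist4, and others named were chosen after their values were seen. Members and lists were chosen with earlier results of these data known. Annotation and positions are GENCODE vM21 (GRCm38), and promoters RefSeq (GRCm38.p6). The GC content used was that of the longest annotated transcript.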

Additional observations from a re-analysis of the deposited data

Results flagged for a closer look

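Library fRIP input 4 lay far from the other fRIP inputs in 7 of the 12 quantities examined in them by Dixon's test. Of the 48 groups of 4 libraries examined in all, no other held a library this far apart. About 1 group in 20 would be picked out by chance if the groups were independent, which they are not. The genes are part of the sums and all quantities are read in the same libraries. The 7 are therefore 1 library seen repeatedly, not separate observations. The values were 9281 CPM for all members summed, 1487 for H2B and 4497 for H4, and 526 for Hist1h1a, 347 for Hist1h2bb, 810.1 for Hist1h4d and 338 for Hist4h4. What sets this library apart was not tested.

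The log2 fold change differed between fRIP and UV-RIP by the interaction test for 5 of the 6 genes examined, which were the gene with the most UMIs in each class and Hist4h4. Of all genes, 8.07% were called lower and 18.6% higher. The difference was -0.76 for Hist1h1a, -0.62 for Hist1h2ak, -1.10 for Hist1h2bb, -1.19 for Hist1h3e and -1.39 for Hist1h4d. All 5 were also past the threshold without fRIP replicate 4, at -0.48, -0.55, -0.61, -0.91 and -0.98.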

How the results depend on the processing

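In UV-RIP the number of depleted members was 3 under TMM scaling, 3 with totals that left out Gm26917 and Gm42418, 1 with DESeq2 and its median-of-ratios factors, 2 with the length trend removed, and 30 without a fold threshold, where 2 were enriched. The UV-RIP median was -0.061, -0.084, -0.07 and 0.014 under the first 4 of these, so its sign turned with the length trend removed. DESeq2 with total UMIs called 33 members lower in fRIP than in UV-RIP. The median between the inputs was 1.317 with the length trend removed and ran from 1.362 (without fRIP input 4) to 2.051 with 1 library left out at a time. The causes were not tested. Without the replicate block 57 members were depleted in fRIP, 5 in UV-RIP and 45 lower in the difference, with medians of -1.357, -0.223 and -1.072, and with a replicate block 56 were higher between the inputs, with a median of 1.741. Of the 28 members described, the block setting changed the call of Hist4h4 in fRIP (-1.55, depleted without the block) and of Hist1h1e (-0.38) and Hist1h2af (-0.75) in the difference, which were not called without it, and changed no other call. Of the values of the 28 members described, 344 of 364 in fRIP, 324 of 364 in UV-RIP, 440 of 476 for the difference and 471 of 471 between the inputs kept both direction and side of the threshold. Another 1, 30 and 10 of the first 3 changed sign, none of them called under either setting. In UV-RIP the values that turned were 0.03 for Hist1h2bg, 0.04 for Hist1h3e, 0.04 for Hist1h4d, 0.07 for Hist1h4f and 0.03 for Hist1h4m under TMM scaling, and 0.01 for Hist1h2bg, 0.01 for Hist1h3e, 0.02 for Hist1h4d, 0.04 for Hist1h4f and 0.00 for Hist1h4m when totals excluded the 2 Gm genes. They were 0.03 for Hist1h2bg, 0.04 for Hist1h3e, 0.04 for Hist1h4d, 0.06 for Hist1h4f and 0.03 for Hist1h4m with DESeq2's own factors, 0.02 for Hist1h1c, 0.01 for Hist2h2ac, 0.11 for Hist1h2bg, 0.11 for Hist1h3e, 0.03 for Hist1h4a, 0.11 for Hist1h4d, 0.14 for Hist1h4f and 0.11 for Hist1h4m with the length trend removed, and -0.08 for Hist2h3b and 0.04 for Hist1h4d with the GC trend removed. With 1 replicate left out UV-RIP values ran from -0.60 to 0.08 for Hist1h2ba, -0.08 to 0.11 for Hist1h2bk, -0.05 to 0.07 for Hist2h3b and -0.46 to 0.12 for Hist1h4m. The fRIP value of Hist4h4 ran from -1.0 to 0.25, the highest being that without fRIP replicate 4. The difference of Hist1h2aa was -0.06, -0.07, -0.04 and -0.05 under TMM scaling, the reduced totals, DESeq2's own factors and the GC trend removed, and ran from -0.29 to 0.54 with 1 replicate left out, as that of Hist3h2ba did from -0.62 to 0.03. DESeq2 gave no adjusted p between the inputs for 2 members with total UMIs and 3 with its own factors. Depth limits Hist1h2bq, Hist2h2be and Hist2h3c2, with means of 0.6, 5.2 and 6.7 UMIs.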
